A study of Homo sapiens with 6 samples.

Results

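The SOCS, CISH and PIM genes encode proteins that act on signalling from cytokine and growth factor receptors, and several of them, CISH, SOCS1, SOCS3 and PIM1 among them, are themselves induced by cytokines. The set described here held 10 genes, found by symbol in the deposited count table of 36601 genes: CISH, SOCS1 to SOCS7, PIM1 and PIM2. Of these 10 genes, 9 passed the filter of CPM above 1 in 2 or more libraries (CPM being counts scaled to a common library size) and were tested, as were 12263 genes in all. RNA came from NK-92, a human natural killer (NK) cell lymphoma line that depends on IL-2, in which either a control shRNA (shCtrl, 3 libraries) or one that targets the long non-coding RNA miR155HG (shmiR155HG, 3 libraries) was stably expressed. Both groups had received IL-2 at 1000 U/mL and IL-12 at 10 ng/mL for 12 h, so that every library came from stimulated cells and no unstimulated background was analysed here. The sequences of the shRNAs, and whether the stable cells were clones, are not given in the sources used here. Nothing in the labels ties the replicates to separate cultures, so the p-values measure the spread between these samples, which may be technical.

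When IL-2 or IL-12 binds its receptor, JAK kinases bound to the receptor tails phosphorylate STAT proteins, which enter the nucleus and switch on target genes. CISH (whose protein is CIS) and the SOCS genes encode proteins with a central SH2 domain, which binds phosphorylated tyrosines, and a SOCS box, which recruits elongins B and C and a cullin-based ubiquitin ligase. SOCS1 and SOCS3 also carry a short kinase inhibitory region that blocks JAK catalysis directly. PIM1 and PIM2 encode serine/threonine kinases that need no activation step after translation, so their activity follows their expression, and that favour survival and protein synthesis. In NK cells, CIS is known as a brake on the response to IL-15 and IL-2.

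Total counts ranged from 33454786 to 39157264 per library, and TMM scaling factors from 0.997 to 1.003. The targeted gene MIR155HG (ENSG00000234883) had 73, 67 and 62 counts in the shCtrl libraries and 28, 19 and 10 in the shmiR155HG libraries. The shCtrl libraries lay above all shmiR155HG libraries, with 1.77 ± 0.155 normalized CPM (SD, n = 3) against 0.509 ± 0.215, a log2 difference of −1.78 (SE 0.43, edgeR quasi-likelihood adjusted p = 0.0045). MIR155HG passed the filter through the shCtrl libraries alone, since every shmiR155HG library lay below 1 CPM. The mRNA of JAK3, the kinase bound to the common gamma chain of the IL-2 receptor, fell from 97.5 ± 3.17 to 74.5 ± 3.68 CPM (log2 difference −0.39, SE 0.06, adjusted p = 1.23e-05). Of 9 NK cell markers 8 passed the filter, with a summed level of 2140 to 2180 CPM in shCtrl and 2090 to 2150 CPM in shmiR155HG libraries; PRF1 (log2 difference −0.20, adjusted p = 0.000419) and NCR3 (−0.24, adjusted p = 0.000577) fell and none rose, while CD7 had 0 to 32 counts. Among all genes tested, 7.26% were called higher and 8.02% lower. Of 6 T cell markers only CD3E passed the filter, and the list summed to 327 to 335 CPM in shCtrl and 329 to 340 CPM in shmiR155HG libraries, with CD8B at 0 in all 6. Summed B cell, monocyte and erythroid markers stayed at or below 5.65 CPM in every library, with HBB at 0 in all. In bulk RNA, fewer cells of a kind and less RNA per cell cannot be told apart.

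Sequence around 2 features of these genes is shown first, because CISH is a known target of STAT proteins and SOCS1 is one of the microRNA made from the targeted transcript. STAT proteins bind palindromes with TTC and GAA at the ends, and the promoter of CISH is a textbook STAT5 target that carries several of them. In the RefSeq promoter table (GRCh38.p14), whose windows run from 250 bases before to 50 after the start, 7 of the 10 genes had an entry, and SOCS2, SOCS5 and SOCS7 had none. The motif TTCNNNGAA reads the same on both strands. It occurred 4 times in the CISH window and was not found in the windows of PIM1, PIM2, SOCS1, SOCS3, SOCS4 or SOCS6. For SOCS3 the windows were chr17:78360876-78361175 and chr17:78359618-78359917, minus strand. Neither covers the 5′ end of the GENCODE gene, at 78360077, so the bases around that end were not searched. Of 35116 windows of 300 bases, 7.66% held at least 1 match, 0.456% at least 2 and 0.0199%, or 7 windows, at least 4. The 250 bases before the CISH start (chr3:50611775-50612024, minus strand, GRCh38.p14) are printed 5′ to 3′, with the 4 matches in capitals.
CISH promoter: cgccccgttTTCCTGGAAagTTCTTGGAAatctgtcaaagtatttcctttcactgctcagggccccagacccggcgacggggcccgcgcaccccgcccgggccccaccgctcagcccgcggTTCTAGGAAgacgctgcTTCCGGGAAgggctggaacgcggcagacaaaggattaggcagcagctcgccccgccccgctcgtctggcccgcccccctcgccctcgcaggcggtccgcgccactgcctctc

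The matches lay in pairs. The distal pair, TTCCTGGAA and TTCTTGGAA, began 241 and 230 bases before the start, and the proximal pair, TTCTAGGAA and TTCCGGGAA, began 129 and 112 bases before it. A match describes letters, and no binding was measured in these libraries.

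That microRNA is miR-155, and SOCS1 is among its well-known targets in immune cells. The mature sequence from RefSeq (hsa-miR-155-5p, chr21:25573983-25574006, plus strand, GRCh38.p14) is printed with its seed, bases 2 to 8, in capitals. Below it stand the stretches of member 3′UTRs (GENCODE release 44, hg38) that hold the complement of the seed, AGCATTA, in capitals.
hsa-miR-155-5p: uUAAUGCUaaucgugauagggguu
SOCS1 site: cgccgtgcacgcAGCATTAactgggatgcc
SOCS5 site 1: ggtttttaaataAGCATTAactaacaacct
SOCS5 site 2: aacctactttaaAGCATTAtgtgcaattaa

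SOCS1 held 1 such site, 24 bases into a 3′UTR of 426 bases (stretch chr16:11254802-11254831, minus strand). SOCS5 held 2 sites, at bases 1540 and 2062 of a 3′UTR of 2988 bases (stretches chr2:46761669-46761698 and chr2:46762191-46762220, plus strand). The other 8 genes held none, and of 18892 3′UTRs in the annotation 10.9% held at least 1. Capture by oligo(dT) leaves out mature microRNAs, so the level of miR-155 itself was not measured.

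The levels of the 9 expressed genes differed widely. Per kb of the annotated transcript, PIM1 stood first in shCtrl cells with 326.7 ± 11.5 normalized CPM per kb (SD, n = 3), and CISH second with 267.1 ± 17.9. PIM1 and CISH made up 48.6% and 39.8% of the summed per-length level of the 9 genes. SOCS2 followed with 25.7 ± 1.73 CPM per kb, then SOCS4 with 17.8 ± 0.766, PIM2 with 12.6 ± 2.16, SOCS1 with 11.0 ± 0.151 and SOCS7 with 7.78 ± 0.407. SOCS5, at 2.42 ± 0.242, and SOCS3, at 0.477 ± 0.108 CPM per kb, closed the order, and PIM1 exceeded SOCS3 by a factor of 685. PIM2 and SOCS1 were the only neighbours in this order whose shCtrl ranges overlapped. The order of the means was the same in shmiR155HG cells, from 368.6 CPM per kb for PIM1 and 289.1 for CISH down to 0.627 for SOCS3.

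**Figure D1:**
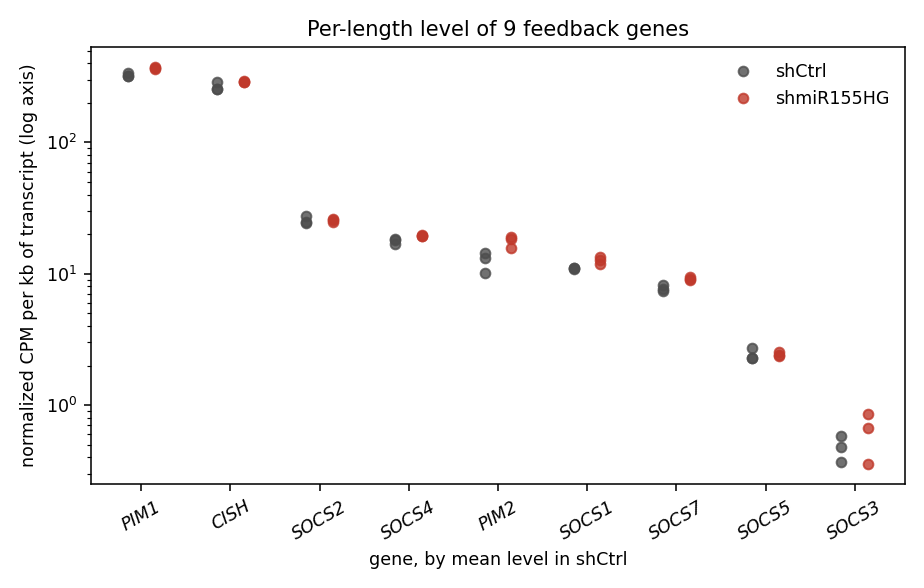
Level of the 9 expressed genes in normalized CPM per kb of transcript on a log axis, 1 point per library, shCtrl in grey and shmiR155HG in red, ordered by the shCtrl mean. PIM1 and CISH lie at 256.6 CPM per kb or higher in every library, and SOCS3 lies lowest, with a shCtrl mean of 0.477.

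The tenth gene, SOCS6 (ENSG00000170677, chr18:70289045-70330199, plus strand, 2 exons), whose protein acts mainly on receptor tyrosine kinases such as KIT, had 0 counts in all 6 libraries. A count of 0 allows up to 3 counts, or 0.0770 to 0.0897 CPM depending on the library, and covers counting error only. The nearest protein-coding gene on the side of lower coordinates, RTTN, lay 83319 bases away and had 1547 to 2036 counts per library. On the other side the next was CBLN2, 2206481 bases away, with 0 to 2 counts. Of 19229 protein-coding genes in the table, 23.1% were at 0 in all libraries.

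Of the 9 tested genes, 5 rose in shmiR155HG cells (CISH, SOCS4, SOCS7, PIM1 and PIM2), none fell, and 4 did not pass the threshold of an adjusted p of 0.05 in edgeR's quasi-likelihood test. Over all 12263 genes tested, 7.26% were called higher and 8.02% lower. The count of 0 genes called lower was also 0 at an unadjusted p under 0.05 and with the exact test, DESeq2 and limma-voom. Beside the share of 8.02%, 0 falls among 9 genes do not set these genes apart. The median log2 difference of the 9 genes was 0.17, against 0.000966 for all genes, and 8 of the 9 were positive. The genes were chosen with earlier results of these data known, so their counts and median are no independent result. The median rise of all genes called higher was 0.27 on the log2 scale. The rises of CISH, SOCS4, PIM1 and SOCS7, from 0.11 to 0.25, lay below it, and that of PIM2, 0.49, lay above it. The groups did not overlap, with every shmiR155HG library higher, for SOCS1, SOCS4, SOCS7, PIM1 and PIM2, a pattern that 15.2% of all genes showed; 0 of the 9 genes showed the opposite pattern, which 15.6% of all genes did. The smallest p of an exact permutation test with 3 libraries against 3 is 0.1, and each of those 5 genes reached it. Under the study's own rule as applied here (exact test, unadjusted P under 0.01, fold change over 1.2), 4.49% of all genes passed as higher. Of the 9 genes, only PIM2 was called. The study itself reported more genes in each direction than the rule gave here. The difference moved with GC content across genes. Its median was −0.05 for genes with under 45% GC and 0.06 for genes with at least 55%, so the value after a GC correction, added after seeing the data, is given where it changes a result. The part of GC content in these differences was not tested.

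**Figure D2:**
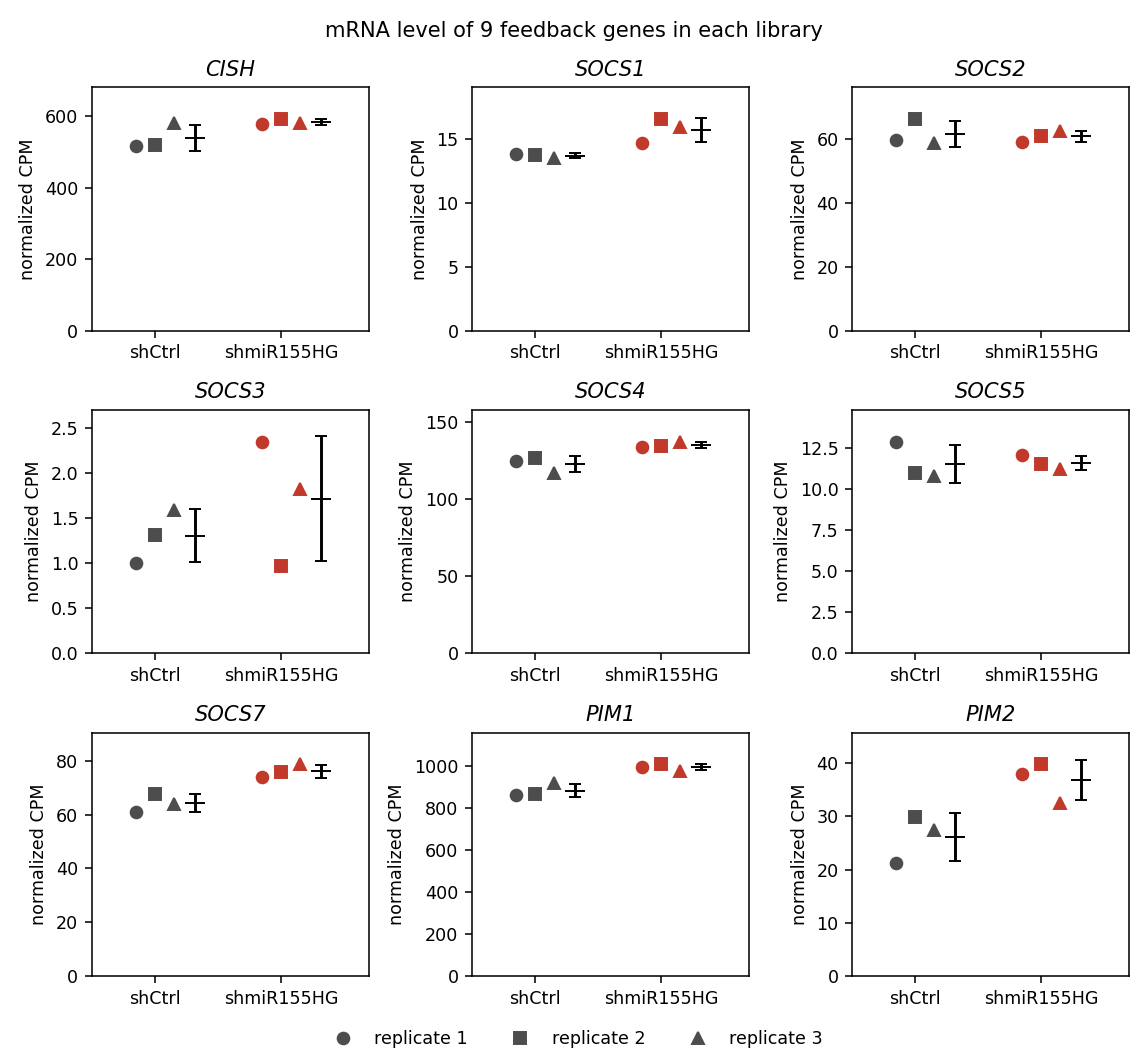
Normalized CPM of the 9 tested genes, 1 panel per gene with its own axis starting at 0; each symbol is 1 library (circle, square and triangle for replicates 1, 2 and 3), and bars give the mean ± SD of 3 libraries. Grey shCtrl and red shmiR155HG symbols are separated for SOCS1, SOCS4, SOCS7, PIM1 and PIM2 and overlap for CISH, SOCS2, SOCS3 and SOCS5.

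CISH (ENSG00000114737, chr3:50606489-50611774, minus strand, 3 exons) encodes a SOCS family member that is induced by STAT5 and binds the IL-2 receptor beta chain. It had 518.1, 518.5 and 580.9 normalized CPM in the shCtrl libraries (replicates 1, 2 and 3 in this order here and throughout) and 577.4, 592.6 and 581.0 in the shmiR155HG libraries, from 18913 to 22638 counts per library. The third shCtrl library stood with the shmiR155HG libraries, so the groups overlapped, while the other two shCtrl libraries lay well below. CISH rose from 539.2 ± 36.1 to 583.7 ± 7.98 CPM, a gain of 8.25% (log2 difference 0.11, SE 0.04, adjusted p = 0.0381). The call was lost without shCtrl replicate 1 (adjusted p = 0.179), shCtrl replicate 2 (0.225), shmiR155HG replicate 1 (0.0833), shmiR155HG replicate 2 (0.171) or shmiR155HG replicate 3 (0.0984), and also with filterByExpr (0.0687) or the exact test (0.0769). After the GC correction the difference was 0.07 (adjusted p = 0.195). An exon of CISH overlaps an exon of MAPKAPK3 on the opposite strand, which had 4978 to 5445 counts, and since the use of strand in counting is not given, reads of the shared stretch cannot be assigned.

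SOCS1 (ENSG00000185338, chr16:11254417-11256204, minus strand, 2 exons) encodes the direct inhibitor of JAK kinases and carries the miR-155 site printed above. Its level was 13.78, 13.76 and 13.45 CPM in shCtrl libraries and 14.65, 16.53 and 15.88 CPM in shmiR155HG libraries, from 502 to 629 counts. All shmiR155HG libraries lay above all shCtrl libraries, which were nearly equal. The means were 13.7 ± 0.187 and 15.7 ± 0.955 CPM, but the difference of 14.8% did not pass the test (log2 difference 0.20, SE 0.12, 95% confidence interval −0.05 to 0.44, adjusted p = 0.297). After the GC correction it was 0.11 (adjusted p = 0.634). SOCS1 has the highest GC content of the 10 transcripts, 66.2%.

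SOCS2 (ENSG00000120833, chr12:93569814-93583487, plus strand, 2 exons), best known as the brake on growth hormone signalling, had the third highest level per kb. Its level was 59.48, 66.13 and 58.53 CPM in shCtrl libraries and 58.90, 60.95 and 62.28 CPM in shmiR155HG libraries. The groups overlapped, and the highest and the lowest values were both from shCtrl libraries. The log2 difference was −0.02 (SE 0.06, 95% confidence interval −0.15 to 0.12, adjusted p = 0.913). The antisense transcript SOCS2-AS1, which shares no exon stretch with SOCS2, had 27 to 74 counts per library.

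SOCS3 (ENSG00000184557, chr17:78356778-78360077, minus strand, 2 exons), the second JAK inhibitor of the family, which acts at gp130 and related receptors, was barely expressed. It had 39, 48 and 62 counts in shCtrl libraries and 90, 37 and 61 in shmiR155HG libraries. The highest and the lowest counts were both from shmiR155HG libraries. At 1.30 ± 0.294 against 1.71 ± 0.693 CPM, the log2 difference was 0.39 (SE 0.39, 95% confidence interval −0.41 to 1.198, adjusted p = 0.574). At this depth the interval covered changes in both directions.

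SOCS4 (ENSG00000180008, chr14:55027230-55049489, plus strand, 3 exons) and SOCS5 are close relatives with long N-terminal regions, and both have been tied to the epidermal growth factor receptor. SOCS4 had 124.8, 126.6 and 116.7 CPM in shCtrl libraries and 133.6, 134.5 and 137.1 CPM in shmiR155HG libraries, from 4547 to 5128 counts. The groups did not overlap, and the third shCtrl library was the lowest. SOCS4 rose from 122.7 ± 5.29 to 135.1 ± 1.79 CPM, by 10.1% (log2 difference 0.14, SE 0.05, adjusted p = 0.0393). The call was lost without shCtrl replicate 1 (adjusted p = 0.0513), shCtrl replicate 3 (0.137), shmiR155HG replicate 1 (0.0749), shmiR155HG replicate 2 (0.0962) or shmiR155HG replicate 3 (0.123), and also with no filter on low counts (0.0617) or filterByExpr (0.0560). SOCS4 has the lowest GC content of the 10 transcripts, 35.4%, and its difference was larger after the GC correction, 0.21 (adjusted p = 0.00116).

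SOCS5 (ENSG00000171150, chr2:46698952-46780245, plus strand, 2 exons), with 2 miR-155 sites, had 12.88, 10.97 and 10.80 CPM in shCtrl libraries and 12.07, 11.53 and 11.21 CPM in shmiR155HG libraries. All shmiR155HG values fell inside the shCtrl range. The log2 difference was 0.01 (SE 0.14, 95% confidence interval −0.27 to 0.28, adjusted p = 0.984).

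SOCS7 (ENSG00000274211, chr17:38351844-38405593, plus strand, 10 exons), also named for its binding to the adaptor NCK, showed the clearest change of the SOCS family. It had 61.10, 67.77 and 63.74 CPM in shCtrl libraries and 73.85, 75.95 and 78.64 CPM in shmiR155HG libraries, from 2377 to 2891 counts. Every shmiR155HG library lay above every shCtrl library. SOCS7 rose from 64.2 ± 3.36 to 76.2 ± 2.40 CPM, by 18.6% (log2 difference 0.25, SE 0.06, adjusted p = 0.00527). This call held in all 16 alternatives with an adjusted p, where the difference ranged from 0.21 to 0.29 and the adjusted p reached 0.0361 at most, without shCtrl replicate 1.

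PIM1 (ENSG00000137193, chr6:37170152-37175428, plus strand, 6 exons), a STAT5 target whose kinase phosphorylates the death agonist BAD and cell cycle inhibitors, was the most abundant gene of the set. Its level was 864.0, 866.3 and 918.9 CPM in shCtrl libraries and 999.6, 1010 and 979.4 CPM in shmiR155HG libraries, from 31599 to 38442 counts. The groups were clearly apart, with narrow spread within each. PIM1 rose from 883.1 ± 31.1 to 996.3 ± 15.6 CPM, by 12.8% (log2 difference 0.17, SE 0.03, adjusted p = 0.000245), the lowest adjusted p of the set. The call held in the same 16 alternatives, with differences of 0.14 to 0.21.

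PIM2 (ENSG00000102096, chrX:48913182-48919024, minus strand, 6 exons), a kinase of the same family that acts on BAD and on the translation repressor 4E-BP1, had the largest rise. Its level was 21.18, 29.86 and 27.46 CPM in shCtrl libraries and 37.97, 39.80 and 32.56 CPM in shmiR155HG libraries, from 824 to 1515 counts. The groups did not overlap, but the first shCtrl library was low and the third shmiR155HG library lay nearest to the shCtrl libraries. PIM2 rose from 26.2 ± 4.48 to 36.8 ± 3.77 CPM, by 40.7% (log2 difference 0.49, SE 0.11, 95% confidence interval 0.27 to 0.71, adjusted p = 0.0024). Of all genes called higher, 23.4% (208 genes) rose by more than PIM2. In those 16 alternatives the call held too, with differences of 0.36 to 0.60 and an adjusted p of at most 0.0272, without shmiR155HG replicate 2. The third PIM kinase gene, PIM3, was no member of the set but rose too, from 211.6 ± 9.16 to 230.4 ± 6.04 CPM (log2 difference 0.12, SE 0.04, adjusted p = 0.0359), a call lost with the exact test (adjusted p = 0.0514).

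**Figure D3:**
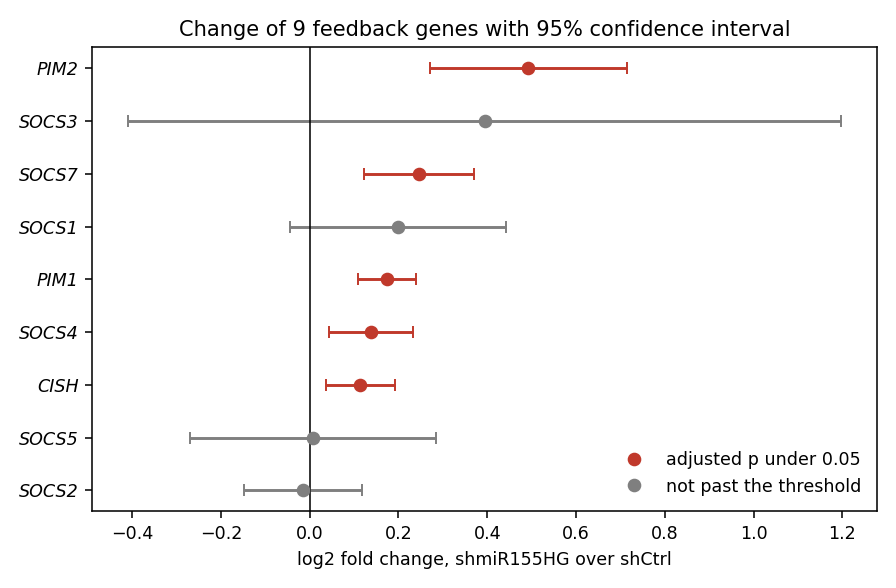
Log2 difference between shmiR155HG and shCtrl with its 95% confidence interval for the 9 tested genes, from edgeR's quasi-likelihood fit to 3 libraries per group. The intervals of PIM2, SOCS7, PIM1, SOCS4 and CISH (red, adjusted p under 0.05) lie above 0, and that of SOCS3 is the widest, from −0.41 to 1.198.

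By the smallest root mean square distance of centred log2 CPM over the 6 libraries, the genes most like PIM2 among the 9721 genes averaging 5 CPM or more were CELSR1, an adhesion receptor of the cadherin family (distance 0.0773), and MAFF, a small MAF transcription factor (distance 0.0841). CELSR1 had 5.90 CPM in shCtrl and 8.41 CPM in shmiR155HG cells (log2 difference 0.51, SE 0.18, adjusted p = 0.0558). MAFF rose from 7.40 to 11.6 CPM (log2 difference 0.65, SE 0.16, adjusted p = 0.00573). The likeness is a description over 6 libraries. Because CELSR1 and MAFF were picked for their likeness to PIM2 in these same libraries, their higher level in shmiR155HG cells follows from that choice.

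The 5 rises differed in how they held under other settings. SOCS7, PIM1 and PIM2 stayed past the threshold in each of the 16 alternatives with an adjusted p, whereas CISH and SOCS4 did so in 8 each. SOCS1, SOCS2, SOCS3 and SOCS5 passed it in none.

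**Figure D4:**
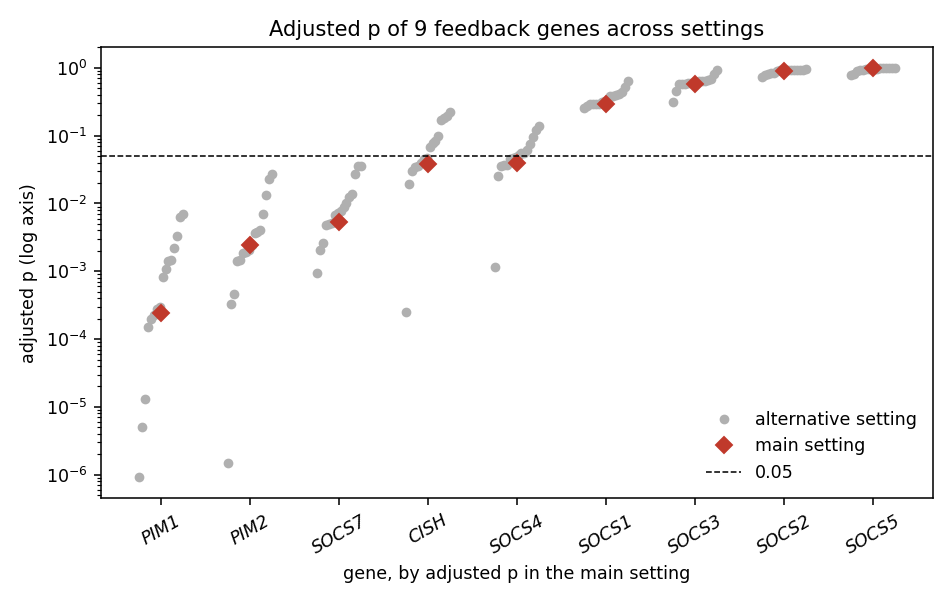
Adjusted p of each gene on a log axis in the setting reported here (red diamond) and in each of the 16 alternative settings that give one (grey points), with a dashed line at 0.05. All points of PIM1, PIM2 and SOCS7 lie below the line, 8 of the 16 grey points do for CISH and for SOCS4, and none for the other genes.

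The genes around the set were taken from 6 lists with 79 genes in all, of which 73 were tested. Of these, 9 rose and 14 fell, where 7.26% of all genes tested were called higher and 8.02% lower. The lists were chosen with earlier results of these data known, so their counts are no independent result. In the list of IL-2 and IL-12 receptors, JAKs and STATs, all 16 genes were tested, 2 rose, 5 fell and the median log2 difference was 0.000577. IL2RB, the receptor chain to which CIS binds, rose from 1006 ± 44.9 to 1270 ± 17.8 CPM (log2 difference 0.34, SE 0.03, adjusted p = 1.35e-08), while JAK3 fell as given above. Further calls, named after their values were seen, included a rise of STAT5A (0.26, adjusted p = 0.000551) and lower levels of the IL-12 receptor chain IL12RB2 (−0.39, adjusted p = 1.80e-05), the kinase TYK2 (−0.15, adjusted p = 0.0163) and STAT2 (−0.37, adjusted p = 0.0138). STAT5A and STAT5B are closely related and both induce CISH and PIM1. STAT5B, also named after its value was seen, had 104.6 ± 6.27 and 105.1 ± 5.79 CPM (0.01, SE 0.05, adjusted p = 0.953).

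Among other negative regulators of cytokine receptors the calls were all downward. Of 11 tested of 13, 0 rose and 3 fell, with a median of −0.09 on the log2 scale. Over all genes tested, 7.26% were called higher and 8.02% lower. Beside these shares, 0 rises among 11 genes do not set the list apart. At an unadjusted p under 0.05, 1 was higher and 4 lower, and the exact test, DESeq2 and limma-voom each called 0 higher and 3 lower. The phosphatase CD45, encoded by PTPRC, fell from 737.9 ± 12.2 to 622.1 ± 20.9 CPM (log2 difference −0.25, SE 0.03, adjusted p = 2.84e-06). PTPN1, a phosphatase that removes phosphate from JAK2 and TYK2, fell from 123.9 ± 4.51 to 106.9 ± 2.10 CPM (−0.21, SE 0.05, adjusted p = 0.00211). The third was USP18, an inhibitor of interferon receptors (−0.42, adjusted p = 0.0239), named after its value was seen. Whether this list and the SOCS and PIM genes differ was not tested.

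The SOCS box works through a ubiquitin ligase. Of the 8 listed partners in that ligase, all tested, 1 rose and 0 fell, with a median of 0.05. Beside the shares of all genes tested, 7.26% higher and 8.02% lower, 1 rise among 8 genes does not set the list apart. At an unadjusted p under 0.05 the counts were the same, and so were those of the exact test, DESeq2 and limma-voom. RNF7, the RING subunit that pairs with cullin 5, rose from 44.3 ± 1.49 to 52.7 ± 5.53 CPM (log2 difference 0.25, SE 0.07, adjusted p = 0.0199). The ligase ARIH2, which works with cullin 5, had 185.4 ± 2.23 and 192.3 ± 4.72 CPM (0.05, SE 0.04, adjusted p = 0.414). Among 13 other SOCS box proteins, 10 were tested and 0 passed the threshold in either direction with any of the tools (at an unadjusted p under 0.05, 2 higher and 0 lower in the quasi-likelihood test). Their lowest adjusted p values were those of ASB7 (0.16, SE 0.07, adjusted p = 0.114) and SPSB3 (0.53, SE 0.20, adjusted p = 0.0717).

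Among 13 substrates and partners of PIM kinases, 12 were tested, 2 rose (MYC and PIM3), 1 fell, and the median log2 difference was 0.04. The shares of all genes tested were 7.26% higher and 8.02% lower. MYC, whose protein PIM kinases stabilise, rose from 383.6 ± 20.9 to 483.5 ± 6.44 CPM (0.33, SE 0.04, adjusted p = 1.59e-07). EIF4EBP1, which encodes the PIM2 substrate 4E-BP1 and was named after its value was seen, was lower (−0.43, SE 0.15, adjusted p = 0.0486), a call lost with limma-voom (adjusted p = 0.0597).

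The 18 other known cytokine and STAT target genes, all tested, moved in both directions, with 5 higher, 5 lower and a median of 0.05. Across all genes tested, 7.26% were called higher and 8.02% lower. This list too was chosen with earlier results of these data known. The higher genes were MYC and, named after their values were seen, the survival gene MCL1 (0.16, adjusted p = 0.00226), the cyclin gene CCND2 (0.17, adjusted p = 0.00121) and the transcription factor genes PRDM1 (0.28, adjusted p = 0.0163) and IRF1 (0.11, adjusted p = 0.0258). The largest change in the list was a fall of the cytokine gene IL10 from 76.5 ± 4.90 to 53.6 ± 3.78 CPM (−0.51, SE 0.07, adjusted p = 2.47e-06). The other lower genes, also named after their values were seen, were the cytokine genes IFNG (−0.41, adjusted p = 1.40e-07), OSM (−0.38, adjusted p = 0.0178) and LTA (−0.24, adjusted p = 2.06e-05) and the cyclin gene CCND3 (−0.35, adjusted p = 1.98e-07).

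**Figure D5:**
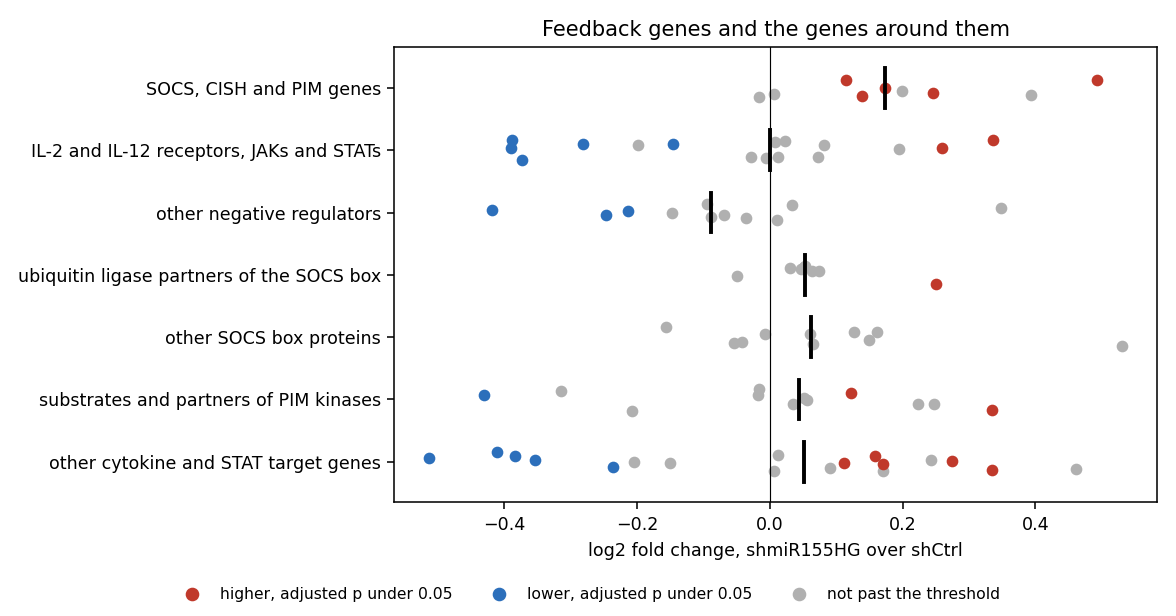
Log2 difference between shmiR155HG and shCtrl for the SOCS, CISH and PIM genes and for the 6 lists around them, 1 point per tested gene, red for higher, blue for lower and grey for not past the threshold of 0.05, with a black bar at each median. The SOCS, CISH and PIM genes have no blue point and a median of 0.17, and the other negative regulators have no red point and a median of −0.09. Over all genes tested, 7.26% were called higher and 8.02% lower, and beside these shares neither absence sets its group apart. The genes and lists were chosen with earlier results of these data known.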

How the data were processed

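Poly(A) RNA of 6 NK-92 libraries was sequenced as pairs of 150-base reads. Per the study's methods, the authors used HISAT2 (hg38), then StringTie limited to known transcripts and prepDE.py3. The deposited table holds counts per gene. Tool versions, annotation release and strand setting are not given in the sources used here. Of counts between 1 and 59, 53.4% were even, so a count may not equal 1 read pair. Groups follow the sample titles, because in shmiR155HG replicates 2 and 3 the treatment label numbers the targeted gene differently. No column of the table was left out.

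The tools were DESeq2 1.42.0, limma 3.58.1 and edgeR 4.0.16 under R 4.3.3. A gene was kept when 2 or more libraries exceeded 1 CPM, libraries were scaled with TMM, and edgeR's quasi-likelihood test (robust, two-sided, Benjamini-Hochberg over all genes tested, threshold 0.05) gave the log2 differences, SE and adjusted p-values. Normalized CPM are counts divided by the scaled library size, and SD values are within a group. Replicates differed by more than sampling noise (mean chi-square per gene 7.35 to 10.9), and the common coefficient of variation was 8.71%. Positions, exons, transcript lengths and GC content came from GENCODE release 44, promoters and the microRNA from RefSeq. The methods were checked on simulated data. Figures used matplotlib 3.10.9.

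Alternatives were DESeq2's size factors, total counts, no filter, filterByExpr, halved counts, a replicate block, the exact test, the study's rule, DESeq2, limma-voom, each library left out, and a GC correction (loess, span 0.5) added after seeing the data. The genes and lists were chosen with earlier results of these data known. Genes named were the 10 members, MIR155HG, JAK3, genes of the lists with an adjusted p under 0.05 and a log2 difference of at least 0.5 in size (at most 4; with none, the 2 of lowest adjusted p), and the 2 genes most like the most changed member. The values of 1 list gene are not reported here.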

Additional observations from a re-analysis of the deposited data

How the results depend on the processing

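The number of SOCS, CISH and PIM genes called higher was 5 as reported, 3 with filterByExpr, 1 under the study's rule, and 3 to 4 with 1 library left out. Under the study's rule, 551 genes were called higher and 466 lower instead of 890 and 984, and 3 genes of the lists were higher instead of 9. The study itself reported more genes in each direction than these 551 and 466, and the cause was not tested. With 1 library left out, 580 to 891 genes were called higher and 9 to 14 list genes lower. The lowest of both ranges came without shmiR155HG replicate 2. The sign of 2 genes near 0 turned. SOCS2 was at 0.0263 with the GC correction and between −0.0467 and 0.0418 over all alternatives, with 0.00601 and 0.0418 without shmiR155HG replicate 1 and shCtrl replicate 2; SOCS5 was between −0.0370 and 0.0939, with −0.0370, −0.0278 and −0.0219 without shCtrl replicate 3, shCtrl replicate 2 and shmiR155HG replicate 1. Leaving out a library leaves fewer samples; the cause of the other shifts was not tested. The replicate numbers do not pair the libraries, since same-numbered libraries deviated from their group means with correlations of −0.0128, 0.0121 and 0.0197, and only replicate 3 correlated best with its own number. With the replicate block, 4 of the genes were called higher (SOCS4 at 0.14, adjusted p = 0.0563), as were 829 genes in all, and 909 were lower. Depth limits SOCS3, with 37 to 90 counts, and SOCS6, with 0.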
